A study of Mus musculus with 8 samples.

Results

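Intronic m6A of nascent RNA was examined here through 532 peaks that lay in an intron and in no annotated exon, called intron-only peaks below. N6-methyladenosine (m6A) is a methyl mark on adenosines inside RNA, and the peaks came from E14 mouse embryonic stem cells, an established line grown with LIF. RNA bound to chromatin, which is largely unspliced, had been fragmented and precipitated with an antibody from Synaptic Systems (SySy) or from Abcam. Each antibody had 2 precipitated libraries and 2 input libraries, 8 in all, from 1 cell line with no treatment or second genotype named. The authors made the Abcam libraries with a TruSeq kit and the SySy libraries with a NEBNext kit. Antibody and library kit therefore cannot be told apart in any comparison with Abcam-only peaks. The authors deposited 3 lists of stranded intervals (mm10), called on pooled duplicates: 5277 peaks called with both antibodies (Cfg1), 5472 called with SySy with Abcam below its calling threshold (Cfg2) and 6319 called with Abcam alone (Cfg3). They ranked Cfg3 as the list of low confidence, with next to no SySy signal. An intron-only peak was a Cfg1 or Cfg2 peak whose midpoint fell in an intron of the representative transcript (the longest coding sequence of the gene, or for noncoding genes the longest transcript) and in no exon of any annotated transcript on its strand. There were 189 in Cfg1 and 343 in Cfg2, out of 889 SySy-called intronic peaks, 10749 SySy-called peaks and 17068 peaks in all. The lists hold neither depth nor peak height, so both are unknown here, and pooling left no spread between replicates to measure. All 95% intervals and p-values therefore cover counting error over peaks only, and peaks of 1 intron or of 1 divided call are not independent.

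In mammalian nuclei m6A is deposited on nascent transcripts by a methyltransferase complex built around METTL3 and METTL14. The complex acts mostly within the consensus DRACH (D is A, G or T; R is A or G; H is A, C or T), of which GGACT is the form most often methylated. Introns are removed from the transcript as it is made, the cut beginning at the 5′ splice site, so a mark inside an intron is lost from the mature mRNA unless the sequence is retained. Introns also hold most of the repeat sequence of genes, which the reference genome marks in lower case (soft-masked).

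The sequences of a few peaks are shown first, because the results below turn on their motif and their repeat content. One peak, that with the most GGACT, is given for each of 7 genes: the 5 genes with 5 or more intron-only peaks and, of the 12 genes with 4, the pair with the most Cfg1 peaks (Spen and Orc3). The letters are those of the reference genome (GRCm38.p6) on the strand of the peak, 5′ to 3′, with GGACT in capitals. In all sequences printed here the other bases are in lower case, which does not mark soft-masking. The Orc1 peak lay at chr4:108584504-108584607 (plus strand), the Orc3 peak at chr4:34590362-34590578 (minus strand), the Spen peak at chr4:141520884-141521110 (minus strand), the Pros1 peak at chr16:62854846-62855034 (plus strand), the Gm2379 peak at chr13:97512110-97512359 (plus strand), the 4732471J01Rik peak at chr7:25418953-25419156 (plus strand) and the Platr22 peak at chr1:136707938-136708084 (plus strand). Each lay in an intron: intron 1 of Orc1, Pros1 and Gm2379, intron 2 of Spen and Platr22, intron 5 of 4732471J01Rik and intron 9 of Orc3.
Orc1: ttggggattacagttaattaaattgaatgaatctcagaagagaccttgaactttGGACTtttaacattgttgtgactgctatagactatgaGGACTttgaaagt
Orc3: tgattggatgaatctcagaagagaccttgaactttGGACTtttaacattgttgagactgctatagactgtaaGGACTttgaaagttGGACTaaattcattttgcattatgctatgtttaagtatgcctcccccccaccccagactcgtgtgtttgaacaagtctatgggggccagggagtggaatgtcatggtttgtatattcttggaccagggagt
Spen: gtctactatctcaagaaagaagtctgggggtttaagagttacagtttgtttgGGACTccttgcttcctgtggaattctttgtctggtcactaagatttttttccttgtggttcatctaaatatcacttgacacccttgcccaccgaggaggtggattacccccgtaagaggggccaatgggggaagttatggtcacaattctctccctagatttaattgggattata
Pros1: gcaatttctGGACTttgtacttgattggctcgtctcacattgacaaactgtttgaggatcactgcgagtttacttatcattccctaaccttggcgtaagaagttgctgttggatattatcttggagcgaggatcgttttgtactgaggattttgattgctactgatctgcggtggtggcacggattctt
Gm2379: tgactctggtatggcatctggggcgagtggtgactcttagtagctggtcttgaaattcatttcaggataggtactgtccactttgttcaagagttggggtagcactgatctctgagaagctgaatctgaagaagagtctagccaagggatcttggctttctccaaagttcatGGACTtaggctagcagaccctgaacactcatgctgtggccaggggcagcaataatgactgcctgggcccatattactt
4732471J01Rik: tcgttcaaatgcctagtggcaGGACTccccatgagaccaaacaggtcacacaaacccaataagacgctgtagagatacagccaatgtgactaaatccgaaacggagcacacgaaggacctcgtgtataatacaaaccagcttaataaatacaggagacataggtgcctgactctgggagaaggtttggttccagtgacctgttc
Platr22: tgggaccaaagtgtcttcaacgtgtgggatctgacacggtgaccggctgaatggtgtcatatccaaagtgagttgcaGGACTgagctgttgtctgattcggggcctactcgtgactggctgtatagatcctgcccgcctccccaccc
The Orc3 peak held 3 GGACT and the Orc1 peak 2, whereas each of the other 5 held 1. The Orc1 and Orc3 peaks were soft-masked over 100% of their length, whereas the Spen, Pros1, Gm2379 and 4732471J01Rik peaks were mostly or wholly unmasked.

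The 532 intron-only peaks lay in 375 introns of 358 genes. One such peak was found in 251 genes, 2 in 65 genes and 3 or more in 42 genes, which together held 151 of the peaks. Of the 375 introns, 99 held 2 or more peaks, 256 peaks in all. The 532 intervals came from 435 called peaks, since 195 of them were parts of a broad call that the authors had divided at its summits. Their median width was 157 nt, with 183 nt in Cfg1 and 150 nt in Cfg2. Of the 358 host genes, 190 also carried a SySy-called exonic peak, and 158 carried no other SySy-called peak in an exon of any transcript.

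Orc1, a subunit of the origin recognition complex that marks replication origins, held more intron-only peaks than any other gene. They came from 4 called peaks, a number that 4732471J01Rik, Pros1 and Zfp704 also reached. Of the 7 Orc1 peaks, 6 lay in intron 1, where their distances to the 5′ splice site were 3112, 3268, 3450, 4473, 4981 and 5093 nt, the first 3 in Cfg2 and the last 3 in Cfg1. The seventh, a Cfg2 peak, lay in intron 3 at 994 nt. The 6 peaks of intron 1 were 71.3% to 100% soft-masked, whereas that of intron 3 was 26.0% soft-masked. Orc3, another subunit of the same complex, held 4 peaks in intron 9, at 1109, 2042, 2591 and 2770 nt, of which the first 3 were in Cfg1. Orc5 held 1 and Mcm7, a subunit of the replicative helicase, held 1.

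Spen, which encodes a large nuclear RNA-binding repressor, had 4 intron-only peaks, all in Cfg1 and all parts of 1 called peak. They tiled intron 2 from 353 to 1075 nt past its 5′ splice site, at 353, 602, 846 and 1075 nt, and at most 10.1% of any of them was soft-masked. Spen also carried 22 SySy-called exonic peaks. Pros1, the gene of the anticoagulant protein S, held 5 peaks in intron 1, at 436, 996, 1300, 1492 and 15892 nt, and no SySy-called exonic peak. Only the first of the 5 was in Cfg1, and all 5 midpoints were unmasked. Peli1, an E3 ubiquitin ligase, held 4 in intron 3 between 1043 and 1947 nt, all with soft-masked midpoints. Haus8, a subunit of the augmin complex of the mitotic spindle, likewise held 4 in intron 3, between 3251 and 4387 nt, all soft-masked at the midpoint.

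Among noncoding genes, the antisense gene 4732471J01Rik held 6 peaks in intron 5, in a run of 4 from 1206 to 1884 nt and a pair at 5370 and 5697 nt. The lincRNA gene Gm2379 held 5 in its only intron, from 72 to 1143 nt, and had no SySy-called exonic peak. Platr22, a long noncoding RNA gene, held 5 in intron 2, all in Cfg2, in a run of 3 from 2237 to 2509 nt and a pair at 3676 and 3773 nt. The lincRNA gene Gm44748 held 4, and Gm30228 and Gm11725 held 3 each. In all, 63 of the 532 peaks lay in 36 noncoding genes.

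**Figure D1:**
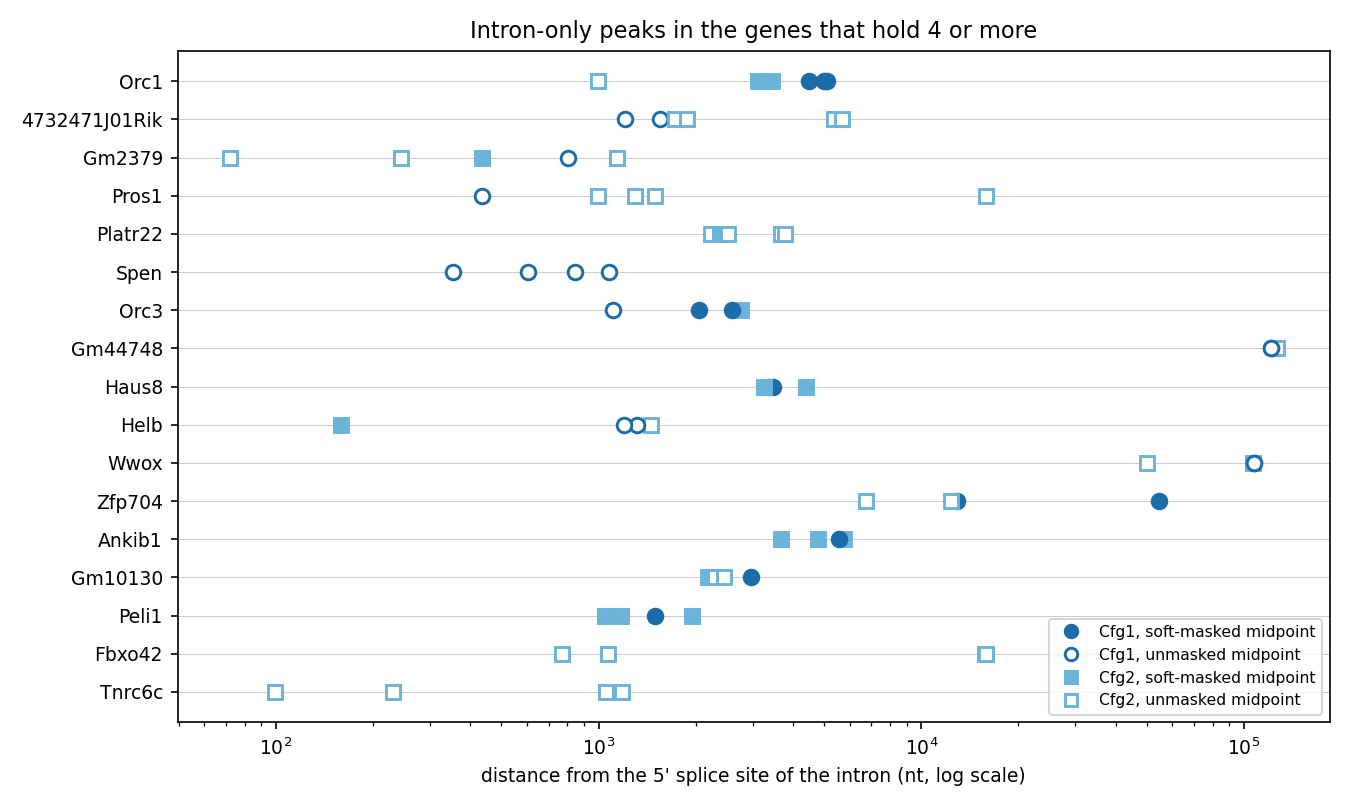
Distance of each intron-only peak from the 5′ splice site of its intron (nt, log scale), 1 row per gene with 4 or more such peaks; circles are Cfg1 peaks, squares are Cfg2 peaks and filled symbols have a soft-masked midpoint. Peaks of one gene mostly lie in runs, as in Spen from 353 to 1075 nt, and those of Peli1, Haus8 and Ankib1 are all filled.

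Gene lists chosen for embryonic stem cells and RNA processing were then read for host genes. Over all genes with a SySy-called peak, 358 of 4236 held an intron-only peak, or 8.45%. The list of origin recognition and replication licensing had 4 of 13 (Orc1, Orc3, Orc5 and Mcm7), with 13 peaks. The hnRNP and nuclear RNA-binding list had 4 of 18: Spen, Hnrnpl with 2 peaks in intron 6, Ptbp1 with 1 in intron 2 at 293 nt and Hnrnpab with 1 in intron 1 at 62 nt. Of the histone lysine methyltransferases 4 of 24 did, with 3 peaks in Setd4, 2 in Prdm2 and 1 each in Kmt2c and Kmt2d. Of the demethylases 2 of 13 did, Jmjd1c and Kdm4b, with 1 peak each. Among pluripotency factors, Klf4 held 2 peaks, at 72 nt in intron 1 and 610 nt in intron 2, and Zfp42 (Rex1) held 1 at 69 nt in intron 1, which made 2 of 16 genes. Tet1, which oxidises 5-methylcytosine, held 1 peak with 2 GGACT in intron 7, at 155 nt, and was the only host of 10 genes of its list. The cleavage and polyadenylation factors Pcf11 and Cstf1 held 1 each, of 10 genes of their list. The RNA demethylase gene Alkbh5 held 1, at 171 nt in intron 1, the only one of 8 readers and erasers. None of the 7 m6A writers and cofactors and none of the 13 chromatin remodellers with a SySy-called peak held one. Other lists held peaks in 1 of 13 cytolinkers (Macf1, 2 peaks), 1 of 13 SR-related factors (Scaf4, 2) and 1 of 15 Polycomb genes (Pcgf6, 1). Of 13 named long noncoding RNAs 2 did (Platr22, 5, and Platr10, 1). These counts are small and were read with no test.

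Outside these lists, Net1, a guanine-nucleotide exchange factor, held 3 peaks over 2 introns, and Rcc2, a regulator of chromosome segregation, held 3 over 2 introns. Ptma, the gene of prothymosin alpha, held 3 in a single intron at 130 to 500 nt, all from 1 called peak. Tnrc6c, a partner of Argonaute in microRNA silencing, held 4, all in Cfg2, between 99 and 1185 nt. Helb, a DNA helicase gene, held 4 in intron 2 with no GGACT in any of them, whereas Prmt9, an arginine methyltransferase, held 3 with GGACT in each. Arid5b, Atg7, Rpap2, Brf1, Ppp1r9a, Trmt11 and Cnot4 held 3 each.

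The share of peaks with GGACT was then compared with that in other peak classes. GGACT was found in 226 of 532 intron-only peaks (42.5%; 45.5% in Cfg1 and 40.8% in Cfg2). Among SySy intronic peaks that fell in an exon of another transcript it was 115 of 357 (32.2%), in SySy exonic peaks 3081 of 8949 (34.4%), and in Abcam-only peaks that met the same intronic rule 468 of 2861 (16.4%). Intron-only peaks exceeded the Abcam-only peaks by 26.1 points (95% interval 21.8 to 30.6; Fisher's test, two-sided and exact, adjusted p = 6.4e-36), the alternative-exon peaks by 10.3 points (3.77 to 16.6; exact adjusted p = 0.0047) and the exonic peaks by 8.05 points (3.80 to 12.4; exact adjusted p = 0.00044). Cfg1 and Cfg2 intron-only peaks differed by 4.69 points (-4.03 to 13.4; exact adjusted p = 0.4). When 1 peak was kept per intron (for exonic peaks, 1 per gene), the alternative-exon and exonic differences no longer passed the test (exact adjusted p = 0.23 and 0.15), nor did they over peaks with unmasked midpoints (0.4 and 0.69).

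As a description of the sequence the peaks lay in, every window of the same width in the same intron whose midpoint was in no exon was read. GGACT was found in 42.7% of the 527 intron-only peaks whose intron could hold such a window, against 16.2% of the windows. For Abcam-only peaks it was 16.4% of peaks against 12.2% of windows. The shorter GGAC was in 73.2% of those peaks against 40.0% of windows, and the wider DRACH in 98.9% against 93.7%. Runs of TTTT were in 48.2% of peaks against 57.0% of windows, and the 5′ splice-site-like GTAAGT in 1.71% against 3.92%. The peaks were also somewhat richer in GC than their introns, with a median excess of 2.14 points, and 344 of 532 (64.7%) were above their own intron. In Abcam-only peaks the median excess was 4.88 points, and 2288 of 2861 (80.0%) were above their own intron.

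GGACT was not spread evenly across the intervals. Of 315 occurrences in intron-only peaks, 202 had their centre 5′ of the peak midpoint and 113 had it 3′, so 64.1% were 5′. In Abcam-only intronic peaks 275 of 543 were 5′ (50.6%). Per 1000 positions, GGACT was found 5.11 times in the 25 nt before the midpoint of an intron-only peak and 1.54 times from 50 to 75 nt after it. In Abcam-only peaks the same windows had 1.37 and 1.05.

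**Figure D2:**
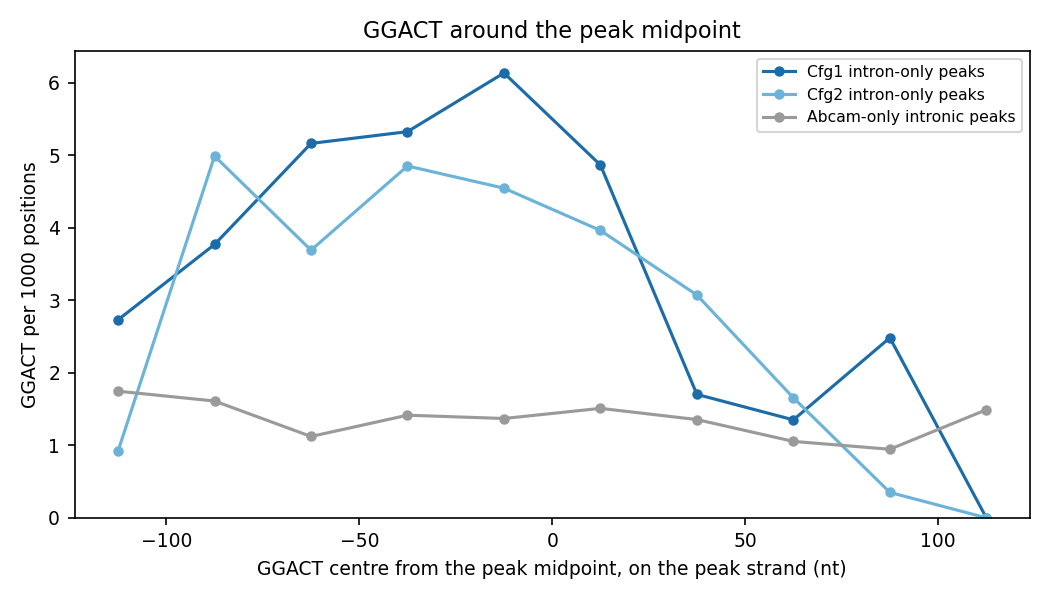
GGACT per 1000 positions in 25-nt steps around the peak midpoint, on the strand of the peak, for Cfg1 and Cfg2 intron-only peaks and for Abcam-only intronic peaks. Both SySy-called lines lie above the Abcam-only line from 100 nt before to 75 nt after the midpoint; the outermost steps rest on 0 to 8 occurrences.

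**Figure D3:**
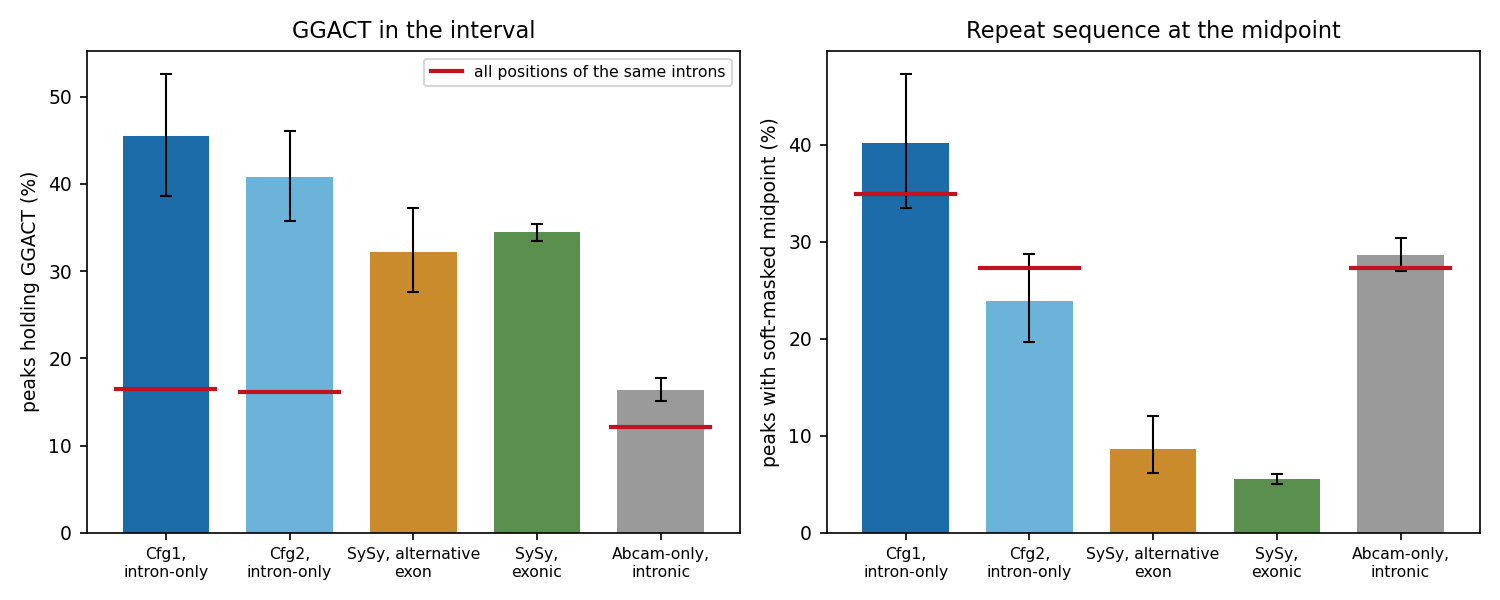
Share of peaks holding GGACT (left) and share with a soft-masked midpoint (right), with 95% Wilson intervals; the red line is the level over all positions of the same introns, drawn for intronic classes only. GGACT is in 45.5% and 40.8% of Cfg1 and Cfg2 intron-only peaks, against 16.4% of Abcam-only intronic peaks, while the soft-masked share is 40.2% in Cfg1 and 23.9% in Cfg2.

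Intron-only peaks lay nearer to the 5′ splice site than Abcam-only peaks did. The midpoint was within 500 nt of it in 113 of 532 intron-only peaks (21.2%), against 290 of 2861 Abcam-only intronic peaks (10.1%), a difference of 11.1 points (7.64 to 14.9; exact test of Fisher, adjusted p = 7.1e-11). Over all positions of the same introns the share was 14.4% for intron-only peaks and 9.85% for Abcam-only peaks. Among alternative-exon SySy intronic peaks 152 of 357 (42.6%) were that near, and 44.5% lay in the first 25% of the intron; these were not tested against intron-only peaks. Cfg1 peaks were within 500 nt less often than Cfg2 peaks, 27 of 189 (14.3%) against 86 of 343 (25.1%), which differed by -10.8 points (-17.3 to -3.65; exact adjusted p = 0.0067), but over the 113 Cfg1 and 261 Cfg2 peaks with unmasked midpoints a difference of -9.41 points did not pass the test (exact adjusted p = 0.15). Positions of the same introns gave 10.2% for Cfg1 and 16.8% for Cfg2, whose introns were shorter, with a median of 9100 nt in Cfg1 and 6799 nt in Cfg2.

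Along the intron, 38.2% of intron-only peaks fell in the first 25% of its length, against 28.7% of Abcam-only peaks (9.43 points, 5.06 to 13.9; exact adjusted p = 5.2e-05), and the difference did not pass with 1 peak per gene (exact adjusted p = 0.055). The first 10% of the intron held 12.2% of Cfg1 and 20.4% of Cfg2 intron-only peaks, and the last 10% held 4.23% and 7.58%. The median distance to the 5′ splice site was 2198 nt, from 8 nt in Tysnd1, which encodes a peroxisomal protease, to 2702642 nt in the predicted gene Gm20388, whose intron was 4384418 nt long. Intron 1 held 33.5% of intron-only peaks and 32.6% of Abcam-only peaks, which differed by 0.883 points (-3.37 to 5.33; exact adjusted p = 0.73).

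**Figure D4:**
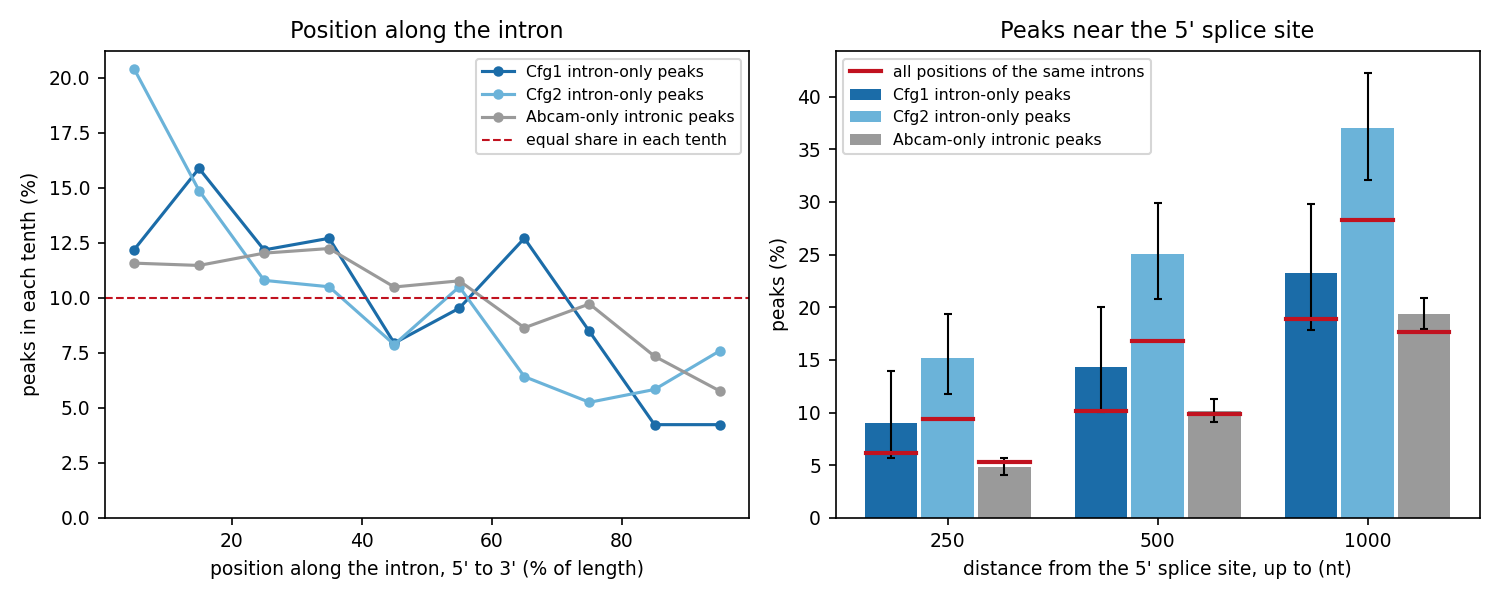
Left, share of peaks in each 10% of intron length from 5′ to 3′, with a dashed line at an equal share; right, share of peaks within 250, 500 and 1000 nt of the 5′ splice site with 95% Wilson intervals and, in red, the level over all positions of the same introns. Cfg2 intron-only peaks are most frequent in the first 10%, at 20.4%, and within 500 nt stand at 25.1%, against 10.1% of Abcam-only peaks.

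Repeat sequence was more frequent in Cfg1 than in Cfg2 intron-only peaks. The midpoint was soft-masked in 76 of 189 Cfg1 peaks (40.2%) and 82 of 343 Cfg2 peaks (23.9%), a difference of 16.3 points (8.05 to 24.6; exact test of Fisher, adjusted p = 0.00025). Over all positions of the same introns it was 34.9% and 27.3%. Among all intron-only peaks it was 29.7%, against 8.68% of alternative-exon SySy intronic peaks (21.0 points, 16.0 to 25.7; exact adjusted p = 3.3e-14) and 28.7% of Abcam-only intronic peaks (1.04 points, -3.05 to 5.37; exact adjusted p = 0.71). The rule bears on the difference from alternative-exon peaks, since exons overlap repeats less often. In SySy exonic peaks the midpoint was soft-masked in 5.53%. By another measure, more than 50% of the interval soft-masked, intron-only peaks stood at 30.1% and Abcam-only peaks at 23.1% (exact adjusted p = 0.0015). Without the peaks that shared sequence with another peak of their class, a setting chosen after seeing the data, the midpoint difference turned: 22.3% of 476 intron-only peaks and 27.3% of 2748 Abcam-only peaks were soft-masked (-5.06 points; exact adjusted p = 0.031). That setting took out 10.5% of intron-only peaks but 3.95% of Abcam-only peaks. Of the 56 intron-only peaks taken out, 53 were more than 50% soft-masked. The setting therefore bears on the measure itself, and no conclusion is drawn from the turn. GGACT was in 56.3% of the 158 intron-only peaks with a soft-masked midpoint and in 36.6% of the 374 others. In Abcam-only peaks those shares were 13.2% and 17.6%.

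Some intron-only peaks, mostly in different genes, carried nearly the same sequence. Peaks were put in 1 group when they shared at least 20 words of 20 bases on their own strands, a criterion chosen after the sequences had been seen and given here with no test. This gave 12 groups with 56 peaks, or 10.5% of 532, of which 53 were more than 50% soft-masked. Of the 12 groups 11 spanned 2 or more genes, and the other was a pair of unmasked peaks in intron 19 of Uhrf1bp1l. With groups formed within each class, none formed among the 357 alternative-exon peaks, and 113 of 2861 Abcam-only intronic peaks (3.95%) fell into 40 groups. These shares depended on the number of shared words: with at least 10 words, 105 intron-only peaks (19.7%) and 230 Abcam-only peaks (8.04%) fell into groups, and with at least 5 words 122 (22.9%) and 337 (11.8%). Of the 56 peaks 33 held GGACT (58.9%), against 193 of the other 476 (40.5%). The shared sequence was not confined to intron-only peaks. When all 10749 SySy-called peaks were grouped together, 271 (2.52%) fell into groups. The largest of those groups had 37 peaks: 24 intron-only, 10 intergenic, 2 alternative-exon and 1 exonic.

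The largest group had 19 peaks in 17 genes on 11 chromosomes, 10 in Cfg1 and 9 in Cfg2, of which 16 held GGACT and 15 held it at least 2 times. Its common stretch carries 2 GGACT that start 14 nt apart, with 9 bases between them. Windows from the 5 genes that had this pair and at least 3 intron-only peaks are shown, to let the repeated motif be seen (the Znrf2 window runs past the end of its peak): Orc3 chr4:34590465-34590526 (minus), Rps15a chr7:118111970-118112031 (minus), Kif18a chr2:109314049-109314110 (plus), Znrf2 chr6:54824534-54824595 (plus), Zzz3 chr3:152409969-152410030 (plus).
Orc3: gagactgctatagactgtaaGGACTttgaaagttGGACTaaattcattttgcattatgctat
Rps15a: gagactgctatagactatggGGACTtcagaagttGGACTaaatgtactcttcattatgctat
Kif18a: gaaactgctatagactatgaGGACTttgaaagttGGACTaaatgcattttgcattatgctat
Znrf2: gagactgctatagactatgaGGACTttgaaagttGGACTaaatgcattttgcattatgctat
Zzz3: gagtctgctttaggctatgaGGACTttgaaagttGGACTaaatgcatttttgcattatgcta
Over all intron-only peaks, 16 of the 74 with 2 or more GGACT had a pair 14 nt apart. The spacing was read from this group, which had 15 peaks with 2 or more GGACT, so the count is a description only. Among spacings up to 50 nt the next most frequent, 37 nt, had 8. It is also seen in the Orc1 and Orc3 peaks printed above, both of this group. Over all peaks of a class, a pair 14 nt apart was in 16 of 532 intron-only, 3 of 357 alternative-exon, 2 of 2861 Abcam-only intronic and 6 of 8949 exonic SySy peaks. The 24-base word from the first GGACT of the Kif18a window has 305 exact copies in the genome, 32 of them in the sense direction of an intron outside exons. Of these 32 copies 5 lay in a SySy-called peak and 0 in an Abcam-only peak. The word was taken from an intron-only peak and 4 such peaks hold it, so the 5 was partly set by that choice. The counts of 5 and 0 are therefore no comparison between the antibodies.

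The second group had 7 peaks in 7 genes, 6 in Cfg1, and each held 1 GGACT. The windows from 4 genes with 3 or more intron-only peaks are aligned on that motif: Orc1 chr4:108584032-108584076 (plus), Orc3 chr4:34591059-34591103 (minus), Peli1 chr11:21144141-21144185 (plus), Zzz3 chr3:152409512-152409556 (plus).
Orc1: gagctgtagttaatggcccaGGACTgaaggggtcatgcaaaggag
Orc3: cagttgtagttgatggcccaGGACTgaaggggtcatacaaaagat
Peli1: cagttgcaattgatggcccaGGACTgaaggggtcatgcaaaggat
Zzz3: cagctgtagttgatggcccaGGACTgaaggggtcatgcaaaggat
The commonest 24-base word of this group occurs 1154 times in the genome and 155 times in the sense direction of an intron outside exons. Of the 155 copies 5 lay in a SySy-called peak and 4 in an Abcam-only peak. This word was also taken from intron-only peaks, 5 of which hold it, so these counts are no comparison between the antibodies either. In 3 genes both groups were found in the same intron and in the same order: the second group lay 508 and 620 nt before the 2 peaks of the first in Orc1, 549 nt before the first in Orc3 and 548 nt before it in Zzz3. The third group had 6 peaks, in Ranbp17, Nup85, Oxr1, Dnajc1, Kmt2c and Zbtb20, all 100% soft-masked and none with GGACT. The part that reads matching several copies play in such peaks was not tested, since the lists hold no reads, and the aligner of these libraries is not given in the sources used here.

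The host genes differed in type from those of the other intronic peaks. A protein-coding host was found for 469 of 532 intron-only peaks (88.2%), against 345 of 357 alternative-exon peaks (96.6%; -8.48 points, -11.8 to -5.02; exact test of Fisher, adjusted p = 1.1e-05) and 2779 of 2861 Abcam-only peaks (97.1%; -8.98 points, -12.0 to -6.41; exact adjusted p = 2.7e-15). The first of these did not pass with 1 peak per intron (exact adjusted p = 0.056) or with the longest transcript of each gene (0.1). The rule also bears on it, since a gene with more annotated transcripts offers more exons in which a midpoint can fall. Of the other 63 intron-only peaks, 36 lay in lincRNA genes, 17 in antisense genes and 10 in genes of the processed-transcript type. A SySy-called exonic peak was present in the host gene of 54.1% of intron-only peaks and 56.6% of alternative-exon peaks, which differed by -2.45 points (-9.04 to 4.22; exact adjusted p = 0.58).

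Intron-only peaks stood alone more often than the alternative-exon peaks. Another SySy-called peak lay within 500 nt on the same strand for 224 of 532 (42.1%), against 215 of 357 alternative-exon peaks (60.2%), a difference of -18.1 points (-24.6 to -11.4; exact test of Fisher, adjusted p = 4.9e-07). Cfg1 and Cfg2 stood at 42.9% and 41.7% (1.17 points, -7.48 to 9.93; exact adjusted p = 0.85). An Abcam-only peak lay that near to 28 of 532. Parts of 1 divided call could count as neighbours of each other. Such parts made up 36.7% of intron-only peaks and 55.5% of alternative-exon peaks. The rule also bears on the difference, since any SySy-called peak counted as a neighbour and 8949 of the 10749 were exonic. Intron-only midpoints lay in no exon by the rule, and 270 of 532 were over 1000 nt from every exon. How far divided calls and the rule bear on the neighbour difference was not tested.

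A second annotation, RefSeq, put some of the 532 in exons. A RefSeq exon on the same strand held the midpoint of 67 of them (12.6%), of which 15 were in curated transcripts, whereas it held 207 of 357 alternative-exon peaks and 98 of 2861 Abcam-only peaks. All 3 Setd4 peaks, both Prdm2 peaks and both Macf1 peaks were among the 67, as were 2 of the 3 Cnot4 peaks and 1 of the 2 Hnrnpl peaks. The interval reached into an annotated exon for 53 peaks. An exon of the opposite strand covered the midpoint of 15 of 532 (2.82%), against 36 of 2861 Abcam-only peaks (1.26%; 1.56 points, 0.358 to 3.37; exact adjusted p = 0.017), and this did not pass with 1 peak per intron (exact adjusted p = 0.073).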

How the data were processed

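Peak lists from chromatin-associated RNA of E14 cells, precipitated with 2 m6A antibodies (8 libraries, 4 groups of 2), were used as intervals. The authors had called them with MACS2 2.1.1 on the pooled duplicates of each antibody against input, divided broad calls at their summits and trimmed them, so that no deposited interval is wider than 250 nt; HOMER is also named in the submitters' processing notes. The deposited score column was 0 for every peak. The aligner is not given in the sources used here.

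Peaks were placed by midpoint and strand on GRCm38.p6 and GENCODE vM21 (the study used a later release), with 1 representative transcript for each of 35325 genes; small RNA genes, pseudogenes and antigen-receptor segments were not taken as hosts. One strand field with a stray character was read as plus. All 358 host transcripts spliced from the assembly matched the GENCODE sequences. Shares were compared by Fisher's exact test, two-sided, with Benjamini-Hochberg adjustment over 19 tests (threshold 0.05), of which 12 passed; intervals are Wilson's for shares and Newcombe's for differences. Of the 19 tests 1, GGACT against Abcam-only peaks, was checked on simulated data. The simulated peaks were independent of each other, which peaks of 1 intron or of 1 divided call are not. Motifs were searched on the strand of the peak only.

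Named genes are those with 3 or more of the peaks, noncoding genes with 2 or more, listed genes with 1 or more, those of printed peaks and those at the extremes of distance; some, predicted genes among them, were left unnamed. For 1 gene list no result is reported here. Genes of the shared-sequence groups were named after their values were seen. The peaks, gene lists and tests were chosen with earlier results of these data known. Scripts ran in Python 3.11.15 with scipy 1.17.1, numpy 2.4.6, matplotlib 3.10.9 and pysam 0.24.0.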

Additional observations from a re-analysis of the deposited data

How the results depend on the processing

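Of 212 recomputed differences, 158 were planned and 54 were added after seeing the data; 126 and 49 kept their direction and their side of the threshold. The cause of the others was not tested. Values are differences in percentage points. With the longest transcript, the 5′ splice site difference between Cfg1 and Cfg2 (-8.81), the coding-host difference from alternative-exon peaks (-4.90) and the antisense-exon difference (1.19) no longer passed. With the whole interval in the intron, the first-25% difference between Cfg1 and Cfg2 passed (-11.4) and their neighbour difference turned (-0.103); at 100 nt from exons these were -11.5 and -0.463. With 1 peak per intron (exonic peaks per gene), GGACT against alternative-exon (6.46) and exonic peaks (4.54), coding host against alternative-exon peaks (-5.32) and antisense exon (1.38) no longer passed, and exonic peak in gene (0.606) and repeat against Abcam-only (-2.30) turned. With 1 peak per gene, GGACT against alternative-exon (7.20) and exonic peaks (5.22), first 25% against Abcam-only (6.30) and antisense exon (1.30) no longer passed, and first intron against Abcam-only (-4.30), exonic peak in gene (0.980) and repeat against Abcam-only (-1.66) turned. With coding hosts only, antisense exon (1.02) no longer passed, and first intron against Abcam-only (-0.929) and exonic peak in gene (0.315) turned. With GGAC, Cfg1 and Cfg2 differed (13.8) and the exonic comparison no longer passed (3.97); with DRACH neither the alternative-exon (0.365) nor the exonic comparison (0.707) passed, nor did they with full-width peaks only (13.4 and 10.3), and within 50 nt of the midpoint the Cfg1 and Cfg2 difference turned (-2.31). At 250 nt the 5′ splice site difference between Cfg1 and Cfg2 no longer passed (-6.17). By over 50% soft-masked, repeat against Abcam-only passed (6.94). Without peaks sharing sequence, a setting that itself took out mostly soft-masked intron-only peaks, the midpoint difference turned and passed (-5.06). Over unmasked midpoints, GGACT against alternative-exon (4.42) and exonic peaks (1.87) and the 5′ splice site difference between Cfg1 and Cfg2 (-9.41) no longer passed, and their first-25% difference turned (0.953). The GGACT and 5′ splice site differences from Abcam-only peaks passed under every alternative run, at 7.98 to 36.7 and 6.63 to 16.1 points. No paired analysis was possible because the lists pool the duplicates of each antibody; for the same reason no replicate could be left out. The lists hold no depth, so what depth limits is unknown.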
